A study of Mus musculus with 768 samples.

Results

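The 33 genes described here carry glucose to pyruvate, pyruvate to lactate and pyruvate into mitochondria, and were chosen by their known roles from the 25700 genes counted in single Schwann cells (SCs), the glia that wrap axons in peripheral nerve. They were read in sciatic nerve SCs of mice at postnatal day 5 (P5), when SCs of 1 nerve are dividing, immature or laying down myelin. All mice had the C57bl/6J background and carried the same 3 transgenes, namely P0Cre, a Cre driver of the SC lineage, a Rosa26 YFP reporter that Cre switches on, and a beta actin DsRed reporter. Nerves were digested with enzymes and sorted for YFP, with 1 cell in each well of 2 plates (384 wells a plate), and each plate held cells pooled from 1 male and 1 female mouse, so that n = 2 plates in each comparison. Cells were read by Smart-Seq2, which amplifies full-length cDNA without molecular identifiers.

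Of 768 wells, 655 had at least 1500 detected genes and did not lie in a corner of a plate. They fell into 4 states by a rule that used none of the 33 genes. Cycling cells (57) had at least 5 reads in at least 3 of 10 cell cycle genes. The others were immature below 10 CPM (counts per 1e6 reads) of Ncmap, a noncompact myelin protein (228 cells), intermediate above it but below 30000 CPM of Pmp22, an integral myelin protein (149 cells), and myelinating above both (221 cells). The line between the last 2 states cuts a range, and 154 of 370 cells lay within 2-fold of it.

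Glycolysis splits 1 glucose into a pair of pyruvate molecules, first spending ATP in a preparatory phase and then regaining more of it in a payoff phase. Pyruvate is either reduced to lactate by lactate dehydrogenase, which renews the NAD+ that glycolysis needs, or taken into mitochondria by a carrier and turned into acetyl-CoA by the pyruvate dehydrogenase complex. In nerve, lactate and pyruvate are thought to pass from SCs to axons through monocarboxylate carriers, and acetyl units also feed the lipid synthesis that myelin requires.

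Many glycolytic genes are known targets of hypoxia-inducible factors, which read the core ACGTG or GCGTG. RefSeq (GRCm38.p6) held a window of 250 bases before to 50 bases after a transcription start for 31 of the 33 genes, all but Slc2a3 and Slc16a7. The core was found on either strand in 23 of these 31 windows (74.2%) and in 43.8% of 27025 windows of all genes. The form ACGTG alone stood in 15 windows (48.4%, against 19.7% of all), and the E-box CACGTG, which contains it and is read by Myc among others, in 5 (16.1% against 7.24%). A SOX-type site, ACAAAG, stood in 4 windows (12.9% against 18.7%). The windows of all genes were not limited to genes read in these cells, so the shares are not matched for expression. These letters are a description of the windows and show no binding. The windows of the genes on which the results below turn are printed 5′ to 3′, with the core on either strand in capitals. They are Eno1 and Ldhb, which differed between states, Ldha, the partner of Ldhb, and Aldoc, which was read almost only in myelinating cells. Eno1 has 3 starts in the table and Ldha and Aldoc 2 each, and the first listed is shown.
Eno1, chr4:150236458-150236757 (+): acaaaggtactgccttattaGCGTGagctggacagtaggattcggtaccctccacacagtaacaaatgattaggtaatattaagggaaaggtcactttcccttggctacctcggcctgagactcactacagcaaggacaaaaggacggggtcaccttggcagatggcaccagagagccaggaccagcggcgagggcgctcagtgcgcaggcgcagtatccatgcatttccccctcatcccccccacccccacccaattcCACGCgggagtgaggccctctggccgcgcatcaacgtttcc
Ldhb, chr6:142507908-142508207 (-): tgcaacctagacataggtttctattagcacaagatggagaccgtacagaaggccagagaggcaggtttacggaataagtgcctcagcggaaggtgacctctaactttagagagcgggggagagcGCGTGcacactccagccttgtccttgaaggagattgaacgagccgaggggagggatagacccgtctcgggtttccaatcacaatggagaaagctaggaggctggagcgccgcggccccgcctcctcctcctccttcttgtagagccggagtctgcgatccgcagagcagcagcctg
Ldha, chr7:46845554-46845853 (+): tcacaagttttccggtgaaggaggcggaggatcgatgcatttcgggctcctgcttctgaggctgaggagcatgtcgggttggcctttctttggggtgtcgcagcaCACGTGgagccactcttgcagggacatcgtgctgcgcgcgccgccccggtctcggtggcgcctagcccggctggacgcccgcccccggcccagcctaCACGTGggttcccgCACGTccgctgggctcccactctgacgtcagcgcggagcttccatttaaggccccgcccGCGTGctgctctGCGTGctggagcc
Aldoc, chr11:78322823-78323122 (+): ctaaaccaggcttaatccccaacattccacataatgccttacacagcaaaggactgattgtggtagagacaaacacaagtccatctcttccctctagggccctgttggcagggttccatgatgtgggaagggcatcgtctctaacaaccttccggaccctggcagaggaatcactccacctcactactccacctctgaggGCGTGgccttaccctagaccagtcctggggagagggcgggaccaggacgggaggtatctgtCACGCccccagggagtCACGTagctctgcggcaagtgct
The Ldha window held 7 matches, of which each CACGTG counts once per strand, the Aldoc window 3, the Eno1 window 2 and the Ldhb window 1.

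A retained cell had a median of 582414 reads assigned to genes (range 3306 to 2495101), and the median per state and plate ran from 418998 in immature to 819461 in myelinating cells. Adding up the cells of a state within a plate gave 8 sums of 13925435 to 98479212 reads. The 20 highest genes, none of them among the 33, took 9.53 to 10.9% of reads in cycling and immature sums and 24.7% in both myelinating sums. CPM values below are therefore relative to a library size scaled by TMM, a factor (0.851 to 1.12) that equalises the bulk of genes between sums. With plain totals the median log2 change of all genes from immature to myelinating cells was -0.42, against -0.04 with TMM, and 26.6% instead of 50.6% of called genes were higher. The SC genes Sox10 (209.6 to 279 CPM) and Erbb3 (98.1 to 157 CPM) were present in every sum. No retained well had at least 5 reads in at least 3 genes of any list for fibroblasts, endothelial, immune, mural, neuronal, muscle or red blood cells. Pecam1, Ptprc and Rgs5 were at 0 reads in all sums, but other genes of these lists were read. Csf1r had 0.771 to 12.7 CPM over the sums. Dcn reached 28.0 CPM in cycling and Cldn5 42.3 CPM in intermediate cells, both of plate 2. By the same rule, 46 of 57 cycling, 182 of 228 immature, 128 of 149 intermediate and 206 of 221 myelinating cells met a list of 5 SC genes.

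Summed over the 33 genes, the level was 4876 and 3572 CPM in cycling cells of plates 1 and 2, 5517 and 5412 CPM in immature cells, 9001 and 8368 CPM in intermediate cells and 9348 and 8839 CPM in myelinating cells. The intermediate and myelinating sums thus lay above all immature and cycling ones. Aldoa, Ldhb and Eno1 made up 58.5 and 56.9% of this total in myelinating cells and 46.5 and 42.0% in immature cells. Without these 3 genes the sums were 2953 and 3139 CPM in immature and 3880.1 and 3807 CPM in myelinating cells. This gap depends on the scaling, since with plain totals the same sums were 3297 and 3491 CPM in immature and 3303 and 3265 CPM in myelinating cells, which overlap. For all 33 genes, plain totals gave 6160.3 and 6019 CPM in immature and 7958 and 7580.3 CPM in myelinating cells. In bulk sums of this kind, fewer expressing cells and less RNA per cell cannot be told apart by level, so shares of cells are given further on.

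Levels were compared between genes per kilobase of merged exon, the union of all annotated exons of a gene. The order of genes therefore depends on those gene models. Ldhb, the lactate dehydrogenase subunit of heart type, stood first with 326 to 1818 CPM per kb over the 8 sums. It was followed by Aldoa, the general aldolase (86.5 to 583), Ldha, the muscle type subunit (129 to 308), Tpi1, triose phosphate isomerase (146 to 204), and Eno1, enolase 1 (50.5 to 268). The ranges of these 4 overlap, so their order is not fixed across states. At the other end, Slc2a3, a glucose carrier best known from neurons (0 to 0.375 CPM per kb), and Pdk1, a pyruvate dehydrogenase kinase (0 to 0.259), were at 0 reads in 3 of 8 sums each, as was Aldoc. By mean level, 13 of the 33 genes reached 100 CPM, 10 lay from 10 to under 100 CPM and 10 under 10 CPM.

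**Figure D1:**
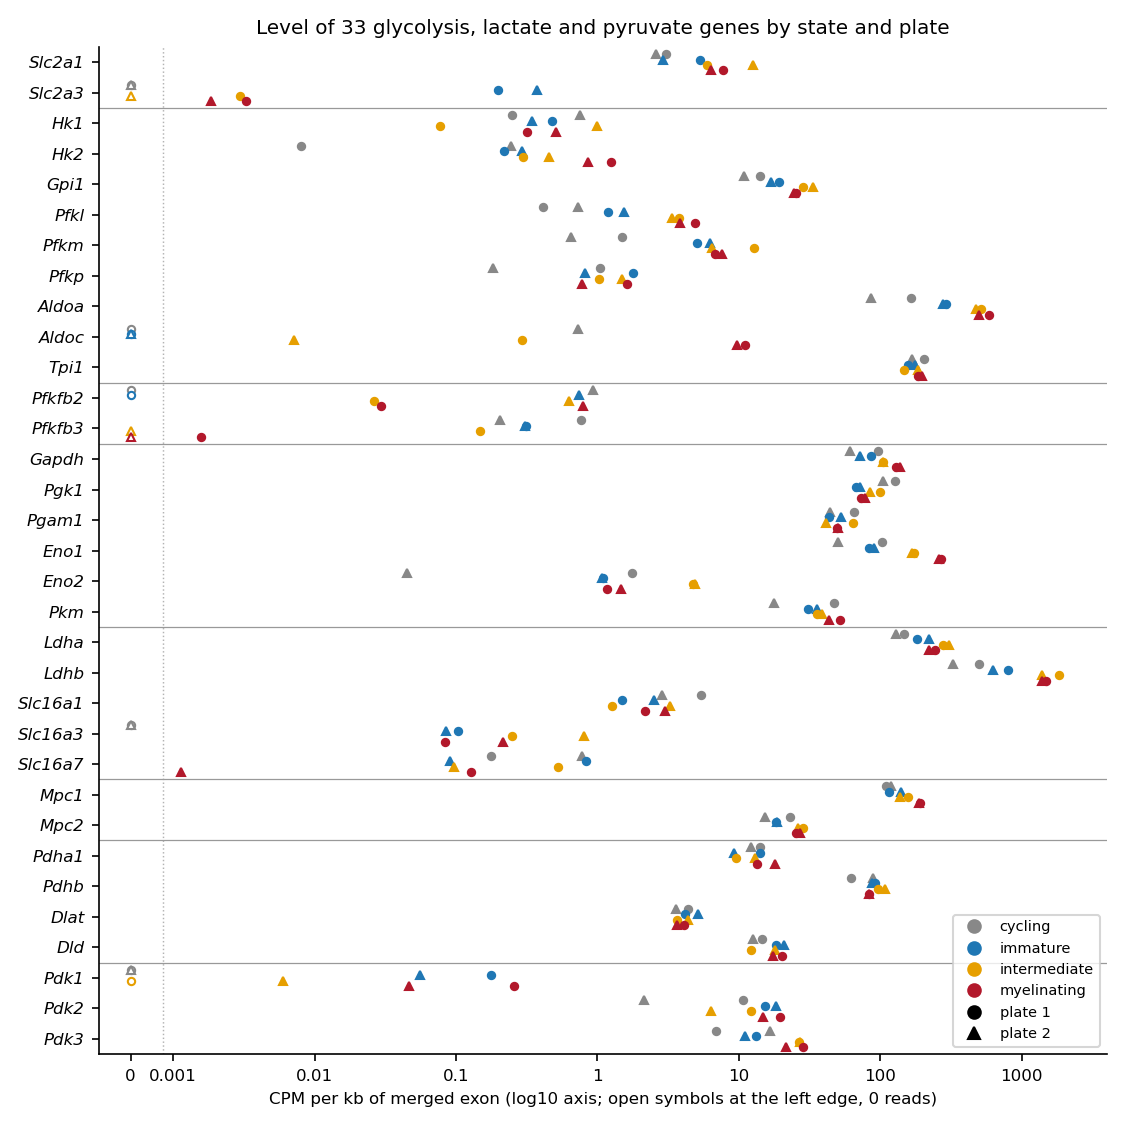
Level of each of the 33 genes in CPM per kb of merged exon (horizontal log10 axis), with 1 symbol per state and plate and genes grouped by step of the pathway. Ldhb lies rightmost in every sum, Hk1 and Hk2 stay at or below 1.25 CPM per kb, and open symbols at the left edge mark sums with 0 reads.

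The first comparison asks what differs between immature and myelinating cells. Eno1, which makes phosphoenolpyruvate, and Ldhb, which interconverts pyruvate and lactate, rose, and no member fell past the threshold. Eno1 (chr4:150236721-150248879) had 450.1 and 482 CPM in immature and 1441 and 1391 CPM in myelinating cells of plates 1 and 2. The groups did not overlap, and the fitted change was 1.60 on the log2 scale (SE 0.275), or 3.04-fold, with an adjusted p of 0.0108 by edgeR's quasi-likelihood test with Benjamini-Hochberg adjustment over 13904 genes. Ldhb (chr6:142490249-142507957) had 1260.4 and 986 CPM in immature and 2329 and 2192 CPM in myelinating cells. These groups did not overlap either, and the change was 1.01 (SE 0.225), or 2.01-fold, with an adjusted p of 0.0353 in the same edgeR test. The Ldhb change was 0.62 with plain totals (edgeR adjusted p = 0.16), and its adjusted p was 0.0674 with totals that left out the 20 highest genes, whereas Eno1 stayed past the threshold at 1.22 (edgeR adjusted p = 0.0343).

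All 33 genes passed the filter on low counts in this fit. The 2 called among them compare with 5.14% of all genes called in either direction and 2.60% called higher. Of the 33, 20 were higher and 6 lower in both plates, against 32.5% and 33.3% of all genes. The median log2 change of the 33 was 0.37, against -0.04 for all genes tested. That of the 13 members with at least 100 CPM was 0.50, and 12 of them were fitted higher, against a median of 0.00 and 49.8% higher among all 1975 genes of that level. With plain totals the median of the 33 was -0.01, against -0.42 for all genes, and 16 instead of 26 were fitted higher. Without adjustment 9 members had p under 0.05, as did 16.3% of all genes, and DESeq2 called 7 members, adding Aldoa, Aldoc, Gapdh, Mpc1 and Pfkfb3, where it called 11% of all genes.

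Aldoa (chr7:126795234-126800751), which cleaves fructose bisphosphate, had 853 and 805 CPM in immature and 1698 and 1449 CPM in myelinating cells. The groups did not overlap, but the change of 0.92 (SE 0.256) had an edgeR adjusted p of 0.0881, and of 0.0485 with the plate as a replicate block. Gapdh, the dehydrogenase that opens the payoff phase, had 353 and 298 CPM in immature and 536 and 569.8 CPM in myelinating cells, a change of 0.76 (SE 0.218) with an edgeR adjusted p of 0.099. Gapdh is often taken as a constant reference, and its values here did not overlap between these 2 states. Mpc1 and Gpi1 were also higher in both plates without being called, and Tpi1, Pgk1 and Pgam1 had fitted changes of 0.19, 0.12 and 0.05.

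**Figure D2:**
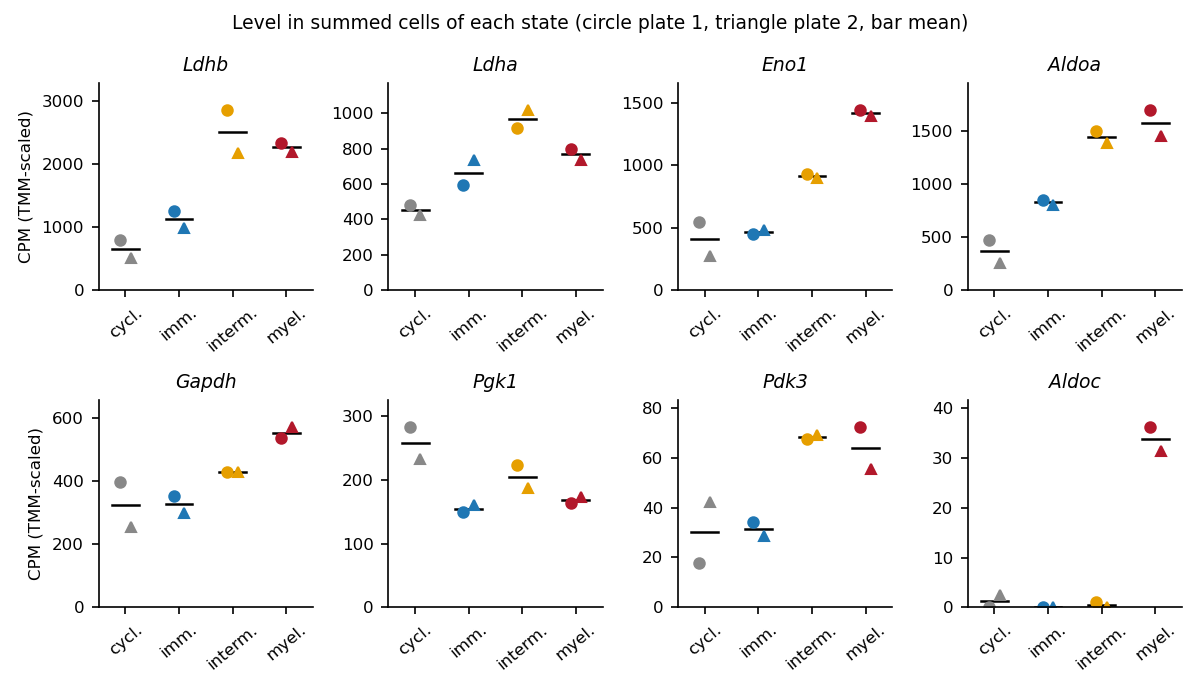
CPM (vertical axis from 0, scale differs by gene) of 8 members in the summed cells of each state, with plate 1 as circles, plate 2 as triangles and the mean as a bar. Eno1 steps up from about 450 to 480 CPM in immature through 897 to 929.6 CPM in intermediate to 1391 to 1441 CPM in myelinating cells, whereas Ldhb is already at 2165 to 2855 CPM in intermediate cells.

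Aldoc, the aldolase of brain type, had 0 reads in both immature sums and 3034 and 2360 reads, or 36.2 and 31.5 CPM, in the myelinating sums. Against a nominal floor of 3 reads in each immature sum, the ratio was 727 in plate 1 and 701 in plate 2. These ratios are not lower bounds on the change, since reads without molecular identifiers are not independent molecules. The edgeR adjusted p was 0.0678, so the gene was not called. Its reads came from few cells. At least 1 read was found in 9 of 108 myelinating cells of plate 1 (8.33%, exact interval 3.88 to 15.2%) and 13 of 113 of plate 2 (11.5%, 6.27 to 18.9%), and 1 cell held 57.2% of the plate 1 reads. None of 228 immature cells had a read, which allows a share of up to 1.32%.

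The second comparison sets intermediate against immature cells and asks what differs where Ncmap first appears. Ldhb was the one member called by edgeR. It had 2855 and 2165 CPM in intermediate cells, above both immature values, a change of 1.16 (SE 0.225), or 2.23-fold, with an edgeR adjusted p of 0.0374. This 1 member called stands beside 2.00% of all genes in either direction and 0.985% called higher. The call was lost with plain totals (1.02, edgeR adjusted p = 0.0674), with a minimum of 2500 genes per cell (1.09, adjusted p = 0.0504 in edgeR) and with the Pmp22 line at 20000 CPM (1.12, adjusted p = 0.0615 in edgeR).

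Eno1 had 929.6 and 897 CPM in intermediate cells, a change of 0.97 (SE 0.271) with an edgeR adjusted p of 0.152. Ldha had 919.6 and 1019.6 CPM, against 597 and 734 CPM in immature cells, and Gpi1, glucose phosphate isomerase, had 182 and 215 CPM, against 124 and 109 CPM. Both were higher in each plate and not called. In both plates 18 members were higher and 6 lower, against 26.7% and 30.0% of all genes, and the median change of the 33 was 0.39, against -0.03 for all genes. DESeq2 called 6 members, namely Ldhb, Aldoa, Aldoc, Eno1, Gpi1 and Ldha, and 6.75% of all genes. Without adjustment 9 had p under 0.05, as did 11% of all genes.

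The third comparison, myelinating against intermediate cells, called no member with edgeR (0.784% of all genes), 2 at an unadjusted p under 0.05, which are Eno1 and Aldoc (9.36% of all genes), and 1 with DESeq2, Aldoc (4.68% of all genes). Eno1 was 0.63 log2 higher in each plate, with an edgeR adjusted p of 0.515. Ldhb had overlapping values, and Ldha was lower in both plates, with a fitted change of -0.34 (SE 0.157, edgeR adjusted p = 0.557). In both plates 14 members were higher and 7 lower, against 30.7% and 26.3% of all genes.

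The last comparison sets cycling against immature cells. No member was called with edgeR (2.58% of all genes), 9 had an unadjusted p under 0.05, 7 of them lower, against 15.4% of all genes, and DESeq2 called 6, namely Aldoa, Aldoc, Ldha, Ldhb, Pfkm and Pgk1, and 9.82% of all genes. Aldoa had 476 and 252 CPM in cycling cells, below the 853 and 805 CPM of immature cells, a change of -1.19 (SE 0.257) with an edgeR adjusted p of 0.0515. With the plate as a replicate block the adjusted p was 0.0312 for Aldoa and 0.0302 for Ldhb, whose 787 and 512 CPM in cycling cells also lay below both immature values. Pgk1, phosphoglycerate kinase, went the other way, with 283 and 233 CPM in cycling against 149.9 and 160 CPM in immature cells, a change of 0.74 (SE 0.198, edgeR adjusted p = 0.106). In both plates 3 members were higher and 15 lower, against 22% and 34.0% of all genes. The cycling sums rest on 32 and 25 cells.

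**Figure D3:**
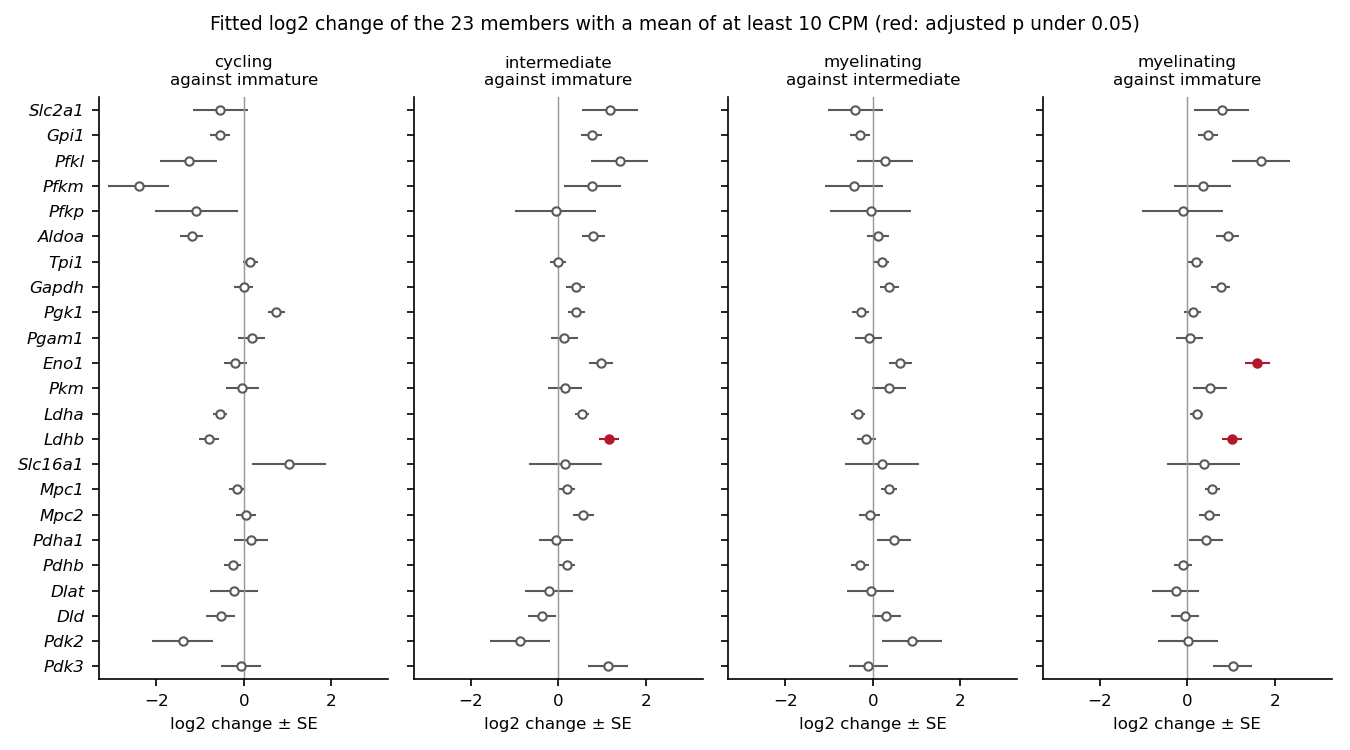
Fitted log2 change (horizontal axis, bars are SE) of the 23 members with a mean of at least 10 CPM in the 4 comparisons. Filled red points passed the threshold, namely Ldhb in intermediate and in myelinating cells and Eno1 in myelinating cells, each against immature cells.

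Along the pathway, the genes of the entry steps were low. Slc2a1, the main glucose carrier of glia, had 9.11 to 44.3 CPM, and Hk1 and Hk2, the hexokinases, 0.662 to 8.51 and 0.0479 to 7.43 CPM. Of the phosphofructokinase subunits, which set the committed step, Pfkl had 7.85 and 10.2 CPM in immature and 32.4 and 25.6 CPM in myelinating cells without being called (edgeR adjusted p = 0.24). Pfkm had 4.94 and 2.17 CPM in cycling and 16.8 and 20.8 CPM in immature cells, which did not overlap (edgeR adjusted p = 0.126), and 42.9 and 21.6 CPM in intermediate cells. Pfkp had 23.9 and 11 CPM in immature and 21.8 and 10.5 CPM in myelinating cells, which overlapped. Pfkfb2 and Pfkfb3, which make the activator of phosphofructokinase, had at most 6.80 and 5.80 CPM and were at 0 reads in 2 sums each. For such genes 1 cell could hold nearly all reads of a sum, as for Pfkfb3 in immature cells of plate 1 (97.2%).

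In the payoff phase, Pgam1, phosphoglycerate mutase, had 81.8 to 128 CPM and Pkm, pyruvate kinase, 88.1 to 259 CPM, and neither was called in a comparison. Eno2, the enolase of neuronal type, had 22.4 and 23.1 CPM in intermediate cells and 5.04 to 6.87 CPM in immature and myelinating cells. The intermediate values lay above all others, but the edgeR adjusted p was 0.637 against immature cells, and 1 cell held 28.7 and 38.1% of the intermediate reads. Tpi1, between the phases, had 402 to 560 CPM, with no state apart from the others.

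The monocarboxylate carriers were low throughout. Slc16a1, the carrier named for lactate export by glia, had 5.56 to 23.7 CPM, and its 2 cycling values (23.7 and 12.6 CPM) overlapped those of intermediate and myelinating cells and came for 82.6 and 95.6% from 1 cell each. Slc16a3 had at most 4.25 CPM and Slc16a7 at most 9.76 CPM. The mitochondrial pyruvate carrier was higher, with 226 to 397 CPM for Mpc1 and 112 to 209.9 CPM for Mpc2. Mpc1 had 397 and 392 CPM in myelinating cells and 239.8 and 291 CPM in immature cells (edgeR adjusted p = 0.13).

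No gene of the pyruvate dehydrogenase complex was called. Its 4 genes summed to 367 to 550.4 CPM over all sums, with 466 and 470.4 CPM in myelinating and 497 and 471 CPM in immature cells. Pdhb, the beta subunit of its first enzyme, had 239 to 414 CPM, Pdha1, the alpha subunit, 34.6 to 67.4 CPM, Dlat, the second enzyme, 17.5 to 25 CPM and Dld, the third, 45.0 to 76.5 CPM. Of the kinases that switch the complex off, Pdk3 had 34.1 and 28.4 CPM in immature, 67.5 and 69 CPM in intermediate and 72.2 and 55.4 CPM in myelinating cells. These did not overlap with immature cells, but edgeR adjusted p-values were 0.398 and 0.303. Pdk2, a second kinase, had 6.73 to 61.9 CPM.

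Shares within isozyme families were taken from reads per kb, with no test, since an exact permutation of 2 plates against 2 cannot give a p under 0.333. Ldhb held 81.6 and 73.9% of lactate dehydrogenase reads per kb in immature cells of plates 1 and 2, 86.7 and 81.7% in intermediate and 86.0 and 86.3% in myelinating cells. The mean was 77.8% ± 5.47 (SD, n = 2 plates) in immature and 86.1% ± 0.221 in myelinating cells, and the difference was 4.33 percentage points in plate 1 and 12.4 in plate 2. These shares depend on merged exon lengths of 1570 bases for Ldhb and 3310 for Ldha. Without division by length, Ldhb had 75930 of 111922 reads in immature cells of plate 1 and 65761 of 114689 in plate 2. In myelinating cells it had 195234 of 262394 and 164012 of 218976 reads. Enolase was nearly all Eno1, with an Eno2 share of 2.68 and 2.86% in intermediate cells and 0.435 and 0.561% in myelinating cells. Aldoc reached 1.87 and 1.91% of aldolase in myelinating cells. The Pdk3 share among kinases was 46.1 and 37.5% in immature, 68.5 and 81.0% in intermediate and 58.7 and 59.4% in myelinating cells, with the rest mostly Pdk2. The Hk2 share differed widely between plates in intermediate cells (79.3 and 31.3%), on 114 and 480 hexokinase reads.

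**Figure D4:**
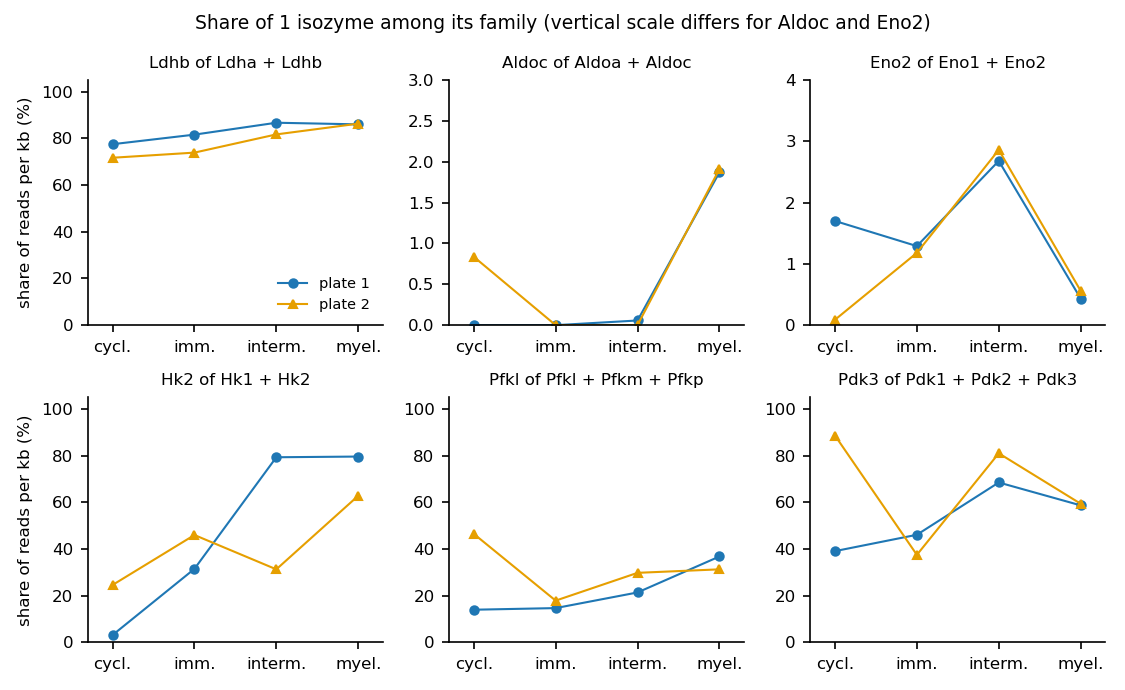
Share of reads per kb (vertical axis, percent) held by 1 isozyme within its family, by state, with lines joining the states of a plate. The Ldhb share lies between 71.7 and 86.7% throughout, and the Eno2 share peaks in intermediate cells of both plates.

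Reads were also counted per cell, with all cells thinned to 100000 reads for a like depth. Ldhb had a read in 85 of 101 (84.2%, exact interval 75.6 to 90.7%) and 106 of 117 (90.6%, 83.8 to 95.2%) thinned immature cells, and in every thinned intermediate and myelinating cell. Without thinning the shares were 94.3 and 93.4% in immature cells and 100% in the other 2 states. The median immature cell had 953 and 930.4 CPM of Ldhb among its own reads and the median myelinating cell 1764 and 1836, and 1 cell held at most 6.55% of the Ldhb reads in these 4 sums. Ldhb exceeded Ldha per kb in 77.1 and 79.0% of immature cells with either gene and in 98.1 and 99.1% of myelinating cells, figures that rest on the same exon lengths. For Eno1 the thinned shares were 87.1 and 89.7% in immature and 99.1% in both plates of myelinating cells, with medians per cell of 449 and 454 against 1115 and 1082 CPM.

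For some genes that edgeR did not call, shares of cells were as follows. Pgk1 had a read in 39.6 and 54.7% of thinned immature and 67.7 and 79.2% of thinned cycling cells. Mpc2 had a read in 55.4 and 66.7% of immature and 83.0 and 82.3% of myelinating cells. For Slc2a1 the highest share in any state was 25.7%, and for Slc16a1 16.8%. Pdk3 had a read in 9.90 and 13.7% of immature and 34.9 and 38.1% of myelinating cells. These shares are a description, and intervals cover counting error only, since reads without molecular identifiers are not independent molecules.

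**Figure D5:**
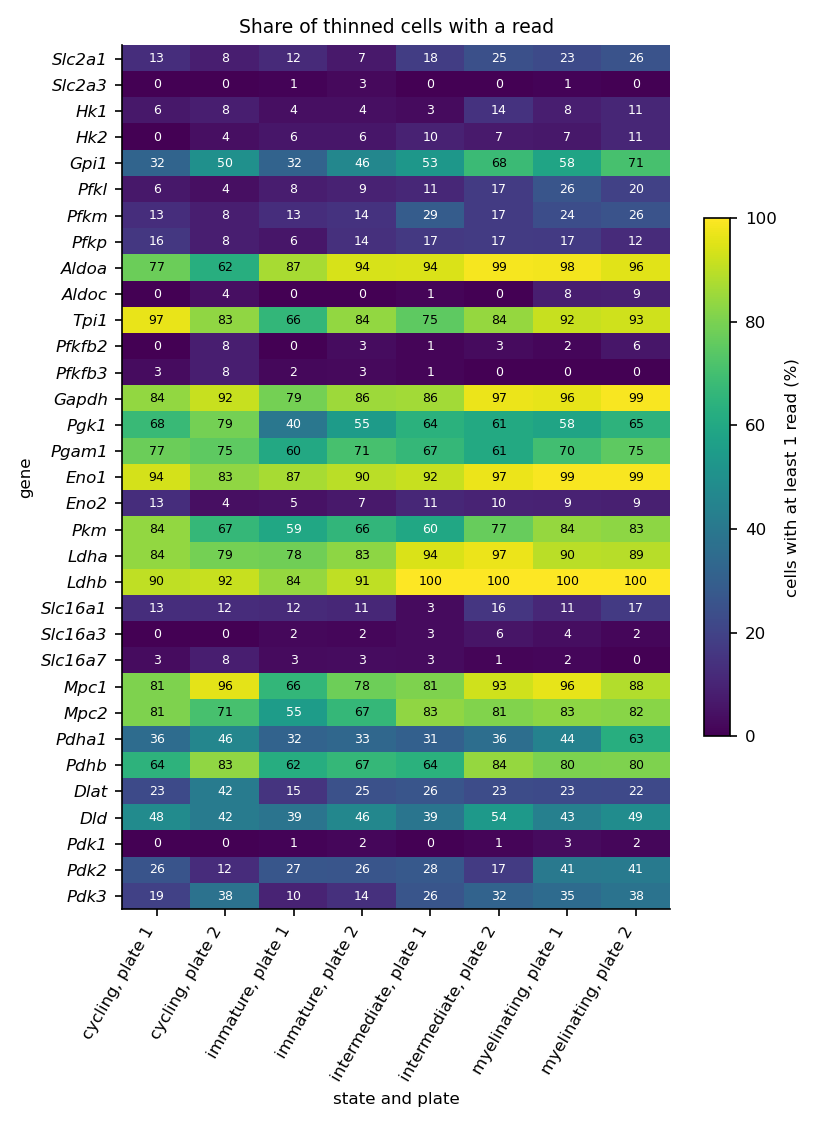
Percent of cells, thinned to 100000 reads, with at least 1 read of each member, by state and plate. Aldoa, Eno1, Ldhb and Gapdh have reads in most cells of every column, whereas the hexokinases stay at or below 14.5%.

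Neighbouring pathways were read from lists of related genes. Among all genes tested, edgeR called 2.58% in cycling, 2.00% in intermediate and 5.14% in myelinating cells, each against immature cells. It called 0.784% in myelinating against intermediate cells. Of 12 other glycolysis genes tested and 7 of glycogen metabolism, none was called in any comparison by edgeR, and of 18 citric acid cycle genes 1 was called, Idh3b, an isocitrate dehydrogenase subunit. It fell by 1.22 on the log2 scale in cycling against immature cells (edgeR adjusted p = 0.0184), with 122 and 127 against 305 and 275 CPM. With cycling cells taken from 2 cell cycle genes the change was -0.67 (edgeR adjusted p = 0.16). Of 7 pentose phosphate genes Tkt (1.03, edgeR adjusted p = 0.0478) and Taldo1 (0.66, edgeR adjusted p = 0.049) rose in myelinating against immature cells, both on the edge of the threshold and lost with plain totals. With the plate as a replicate block Tkt had an edgeR adjusted p of 0.0547. Tkt was past the threshold in 10 and Taldo1 in 9 of 15 alternatives.

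Among the genes that lead from citrate to fatty acids, Slc25a1 was called in 3 comparisons and Fasn in 1. Slc25a1, the carrier that exports citrate from mitochondria, had 94.5 and 67.2 CPM in immature, 260.4 and 222 CPM in intermediate and 536 and 509 CPM in myelinating cells. It rose by 1.58 in intermediate and 2.69 in myelinating against immature cells (edgeR adjusted p = 0.013 and 0.000372) and fell by 1.52 in cycling cells (edgeR adjusted p = 0.0156). The cycling change was -0.27 when reads in 2 cell cycle genes were enough to call a cell cycling (edgeR adjusted p = 0.644), and the intermediate one 1.33 with the Ncmap line at 20 CPM (edgeR adjusted p = 0.0501). Fasn, fatty acid synthase, rose by 1.87 in myelinating against immature cells (edgeR adjusted p = 0.0218). Thus 2 of the 5 genes of this list were called higher there, beside 2.60% of all genes.

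Of 15 regulators of glycolysis tested, 2 fell in myelinating against immature cells, beside 5.14% of all genes called in either direction. Txnip, which restrains glucose uptake, had 55.6 and 82.2 CPM in immature and 15.7 and 9.70 CPM in myelinating cells (-2.44, edgeR adjusted p = 0.0123). Mlxip, a glucose-sensing transcription factor that activates Txnip, had 143 and 192 against 45.7 and 30.2 CPM (-2.14, edgeR adjusted p = 0.00308) and was also lower in intermediate cells (-1.66, edgeR adjusted p = 0.0232, or -1.39 and 0.0622 with the Ncmap line at 5 CPM). Of 6 hypoxia-induced genes Bnip3, a mitophagy receptor, rose (1.69, edgeR adjusted p = 0.0261), with 37.8 and 26.8 against 114 and 94.5 CPM, and it was lost with plain totals. Of 8 other lactate and pyruvate genes, Ldhd, a D-lactate dehydrogenase, had 0 reads in both cycling sums and 15.1 and 3.29 CPM in immature cells (edgeR adjusted p = 0.0464, or 0.0669 with the plate as a replicate block). It was past the threshold in 12 of 15 alternatives, and with cycling cells taken from 2 cell cycle genes the fitted change was -0.44 (edgeR adjusted p = 0.958).

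Some measures moved with the states. The 8 genes of dissociation and stress response summed to 9838 and 6911 CPM in cycling and 9098 and 9669 CPM in immature cells. They summed to 4359 and 4751 CPM in intermediate and 5152 and 4677 CPM in myelinating cells. Fos alone had 6352 and 6432 CPM in immature cells. Against immature cells, 3 of 8 fell in intermediate cells (Ier2, Fos and Egr1) and 3 in myelinating cells (Jun, Ier2 and Egr1). Of all genes, 2.00% and 5.14% were called in either direction in these 2 comparisons. Hspa1a overlapped, with 135 and 228 CPM in immature and 180.2 and 95.8 CPM in myelinating cells, as did Hspa1b. Of the 6 fibroblast genes, 3 were tested and 1, Col3a1, a collagen that SCs also make, fell in intermediate and myelinating cells. It had 1342 and 1594 CPM in immature and 155 and 180.0 CPM in myelinating cells, of fibroblast sums of 1361 and 1603 and of 155 and 183 CPM, while Pdgfra was at most 1.12 CPM and Dpt and Clec3b were at 0. Of 5 endothelial genes, Kdr was called higher in myelinating cells (19.3 and 20.9 CPM, against 0 in both immature sums), with Pecam1, Cdh5 and Emcn at 0 throughout. Pdgfrb, of the mural list, had 7.35 and 6.30 CPM in immature and 47.2 and 51.8 CPM in myelinating cells and was not called, with Rgs5, Kcnj8, Abcc9 and Myh11 at 0. Their part in the values of Ldhb and Eno1 was not tested.

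Some counts depend on gene models. Eno1 shares 23% of its 75-base stretches with other genes, among them Eno1b, which had 24.8 CPM on average, and Ldhb shares 12.6%. Shared stretches reach 52.8% for Pgk1, 34.9% for Pgam1, 22.6% for Gapdh and 17.8% for Pkm, so the values of these genes are uncertain to that extent. Aldoa overlaps Fam57b on the opposite strand (90.8 CPM on average), and since no strand is stated for the counts, their reads cannot be told apart where they overlap.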

How the data were processed

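Single sorted cells were read by Smart-Seq2 in 768 wells of 2 plates. The deposited values are raw read counts per gene and well. Per the labels, the authors used bcl2fastq, STAR 2.6.1c and featureCounts with GRCm38.p5, and the counts carry no normalization and no stated strand. Reads that map to several copies of a gene, or to overlapping genes, can be lost or misplaced in such counts.

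Wells with at least 1500 detected genes were sorted into 4 states by cell cycle genes, Ncmap and Pmp22, and 113 wells were left out. Counts were summed per plate and state, because cells of 1 plate share the same pooled mice and are not replicates. The 8 sums of 13925435 to 98479212 reads were fitted with edgeR 4.0.16 in R 4.3.3 (TMM, filter by expression, quasi-likelihood test) over 13904 genes, with Benjamini-Hochberg adjustment and a threshold of 0.05. The p-values rest on the spread between 2 plates, with 4 residual degrees of freedom. To these the fit adds a median of 4.8 prior degrees of freedom drawn from the spread of all genes. The common dispersion was 0.713. In a simulation of myelinating against immature cells over 13667 genes, the fit recovered 6.35% of genes changed 2-fold, 50% changed 4-fold and 70.5% changed 8-fold. It also called 7 genes that had not been changed. The changed genes were drawn at random from all but the lowest expressed, with a spread set by level. These shares need not hold for each member.

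Same-plate sums share animals, and plate was added as a replicate block in an alternative fit. The correlation of same-plate deviations was -0.00865 to 0.187 over the 6 pairs of states (1975 genes). Other alternatives were DESeq2 1.42.0, other scalings, no filter, other thresholds for wells and states, wells without plate columns 8 and 16 and cells thinned to 100000 reads. Plain totals were added after seeing the data. Intervals for shares are exact binomial (95%). Exon lengths and shared stretches came from GENCODE vM21, with 25664 of 25700 genes matched, and promoters from RefSeq (GRCm38.p6). Tables were handled in Python 3.11.15 with pandas 2.3.3, numpy 2.4.6 and scipy 1.17.1. All 33 members are named, with plate values and full statistics for those called in at least 1 comparison and levels, ranges and counts for the others. Of each related list, up to 3 called genes of largest log2 change are named. Uncalled members given with a change and its p were chosen after their values were seen. The members and lists were chosen with earlier results of these data known.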

Additional observations from a re-analysis of the deposited data

Results flagged for a closer look

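The 113 wells that entered no comparison, for few detected genes or a corner position, also held reads of the 33 genes. Summed over these wells the genes had 36606 of 7437553 reads, or 4922 CPM, against 7276 CPM in the retained wells, both without TMM scaling. The wells carry no state, and the difference was not tested.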

How the results depend on the processing

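Direction was kept under each of 15 alternatives for all 41 gene changes followed. These were changes of members with an unadjusted edgeR p under 0.05 and of called genes of the related pathway lists. They were picked from the main fit on these same data, so a kept direction was likely from the start. Over all members direction was less stable. In myelinating against immature cells 26 of 33 were fitted higher in the main fit and 16 with plain totals. The median of all genes also moved, from -0.04 to -0.42, while that of the members moved from 0.37 to -0.01. Counts of calls also moved. In cycling against immature cells, 0 members became 1 (Aldoa) with upper-quartile factors, with totals that left out the 20 highest genes, with a minimum of 2500 genes, without plate columns 8 and 16, with Ncmap at 5 or 20 CPM and with plain totals, 2 (Aldoa and Ldhb) with the replicate block or thinned cells, 3 without a filter and 6 with DESeq2. In intermediate against immature cells, 1 became 0 without the 20 highest genes, with 2500 genes, with Pmp22 at 20000 CPM and with plain totals, 2 when 2 cycling genes defined cycling cells, 4 without a filter and 6 with DESeq2. In myelinating against intermediate cells, 0 became 1 (Aldoc) without a filter and with DESeq2. In myelinating against immature cells, 2 became 1 (Eno1) without the 20 highest genes and with plain totals, 4 with thinned cells, 5 without a filter or with 2 cycling genes and 7 with DESeq2. Eno1 was past the threshold in 15 of 15 alternatives there (1.22 to 1.63) and Ldhb in 13 (0.62 to 1.12). The cause of these shifts was not tested. The plate block gave 3 members in myelinating against immature cells, with Aldoa added. The Ldhb share difference of 8.35 percentage points was 4.33 to 12.4 when 1 plate was left out, and 8.19 to 9.44 under the other alternatives. Leaving out a plate left no residual degrees of freedom, so no call could be tested that way. In the simulation, 6.35% of genes changed 2-fold were recovered. The changed genes there spanned many levels, whereas Ldhb was called at 2.01-fold and 2.23-fold. Its SE was 0.225 in both comparisons, against a median of 0.542 over the 33 members. The simulated share therefore need not hold for the abundant members.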
